A study of Mus musculus with 6 samples.

Results

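The complement and coagulation factors were followed in mouse liver after TCE, as a set of 49 genes. Members were the genes of a written list whose symbol is carried by a probe of the array that is not a control, and they were found on 66 probes, among 24239 gene symbols and 55681 probes in all. The list holds 15 genes of early complement, 5 of terminal complement, 5 complement regulators, 15 clotting factors, 5 anticoagulants and 4 genes of fibrinolysis. All animals were male B6C3F1 mice aged 7 weeks. The 3 control mice received corn oil by mouth for 5 days, and the 3 TCE mice received trichloroethylene (TCE), a chlorinated solvent, at 1000 mg/kg b.w. over the same 5 days. Liver RNA of each mouse was hybridized to a 1-colour array of its own, so that n is the number of mice.

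Complement and coagulation are 2 cascades of plasma proteins in which an inactive enzyme precursor is cut by the enzyme before it. Early complement recognizes a target and deposits C3, terminal complement assembles C5b, C6, C7, C8 and C9 into a pore in the membrane, and regulators hold both steps in check. Clotting factors lead to thrombin and a fibrin mesh, anticoagulants restrain them, and fibrinolysis dissolves the mesh. Hepatocytes make most of these proteins, while Kupffer cells, the resident macrophages of the liver, make C1q and properdin, and endothelial cells make factor VIII, von Willebrand factor and thrombomodulin.

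The values below are log2 signals after quantile normalization, and each difference is a log2 fold change, TCE minus control, in which -1 is a fall to a level 2-fold lower. A gene was tested where one of its probes exceeded the background clearly in each of the 3 mice of either group, and its brightest such probe represented it. Of the 49 genes, 46 were tested, and their 46 probes were clearly above background in all 6 mice. Cfd, Plat and Plau did not pass this filter. Between 23538 and 24968 probes per array were well above background, 0 spots were saturated, and the array of control mouse 1 shared neither slide nor scan with the other arrays. The 11 tested hepatocyte markers, among them Alb, Ttr and Apob, were clearly above background in every mouse, and their summed signal was 99.2% to 101% of the control mean in control mice and 87.2% to 98.6% in TCE mice. These sums did not overlap, and their part in the members' values was not tested. The sums add linear signals, so the brightest markers weigh most. Alb was lowest in TCE mouse 1, at a log2 signal of 18.19, and Fabp1 in TCE mouse 2, at 16.58. Of the 11 markers, 8 were lower in the TCE group and 3 higher. In a piece of tissue, fewer cells of a type and less RNA per cell cannot be told apart.

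C8b, the beta chain of complement component C8, fell 2.08-fold in the TCE group, a call that was lost when any 1 mouse was left out. It was the only member past the threshold, set at a change of at least 2-fold with a limma adjusted p up to 0.05. The background for that direction was 0.429% of 13284 genes tested. Past the threshold in the other direction were 0 members, where the background was 1.30%. At an adjusted p of 0.05 and any fold change, C8b was again the single lower member (background 0.587%) and 0 were higher (background 1.80%). At an unadjusted limma p of 0.05 or less, 8 members were lower (background 7.11%) and 0 were higher (background 12.0%). All 3 TCE mice lay below all 3 control mice in 14 of 46 members, against 10.8% of all genes, and above them in 1 member, Fgg, against 17.1%. The fitted change was below 0 in 37 of 46 members, or 80.4%, against 46.9% of all genes, and the median change was -0.18 against 0.02. A fall was not particular to the members: of the 11 tested hepatocyte markers, 8 were below 0 (72.7%) and 3 above, with a median of -0.10. In 3 of these markers all TCE mice lay below all control mice. Since 3 mice against 3 can be split in 20 ways, an exact permutation test (two-sided) of a single gene cannot give a p below 0.1. The limma p-values set each difference against the spread within the groups of these 6 mice, drawn in part toward a spread pooled over all probes tested.

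**Figure D1:**
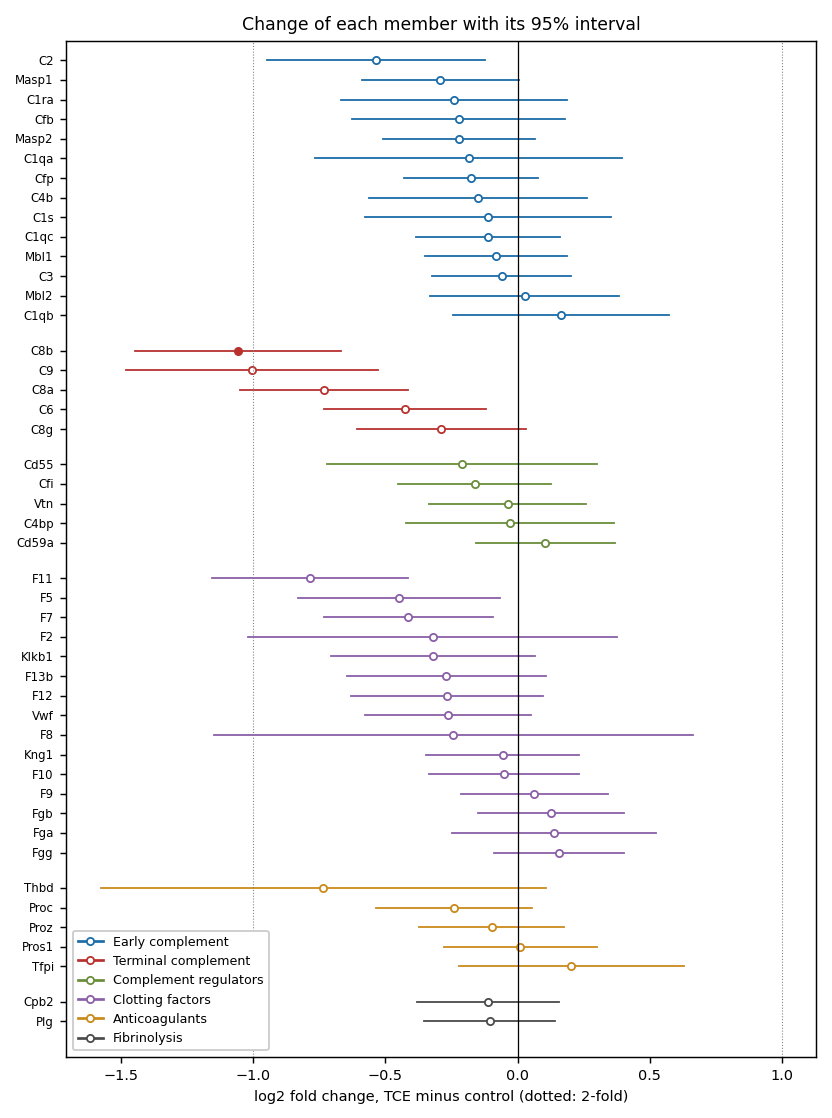
Log2 fold change (x axis, TCE minus control) of each of the 46 tested members by its functional group (y axis, gene symbols), with bars for the 95% interval from limma and dotted lines at 2-fold. The filled point is C8b at -1.06, the only member past the threshold, and 37 points lie left of 0, with all 5 terminal complement genes between -1.06 and -0.29.

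In early complement, 12 of 14 tested members were below 0 and the median change was -0.16. Of these members 4 had groups that did not overlap, 0 reached an adjusted p of 0.05, and the changes ran from -0.54 to 0.16. C2, the protease that joins C4b to form the C3 convertase of the classical and lectin routes, had the largest difference. Its signal was 14.70, 14.88 and 14.86 in control mice 1, 2 and 3, and 14.61, 14.16 and 14.07 in TCE mice 1, 2 and 3. TCE mouse 1 lay close under the controls and the other TCE mice well below them. The change of C2 was -0.54, with a 95% interval from -0.95 to -0.12 (limma adjusted p = 0.181). Cfb, its counterpart in the alternative pathway, differed by -0.22 (limma adjusted p = 0.537).

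The proteases that start the cascade had small differences. Masp1, a protease bound to mannose-binding lectins, was 13.59, 13.61 and 13.34 in control mice and 13.23, 13.26 and 13.17 in TCE mice, without overlap. Its change was -0.29 (limma adjusted p = 0.286), and a further detected probe gave -1.12 (limma adjusted p = 0.243), where TCE mouse 2 stood at 7.12 and the other TCE mice at 8.68 and 8.67. Masp2, which cuts C4 and C2, differed by -0.22, also without overlap. C1ra, a protease of the C1 complex, was 14.47, 14.52 and 14.47 in control mice and 14.38, 14.48 and 13.88 in TCE mice, so that the groups overlapped, TCE mouse 3 was the lowest, and the change was -0.24 (limma adjusted p = 0.531). Its other probe gave -0.49 without overlap (limma adjusted p = 0.296), and there TCE mouse 1 was the lowest, at 13.33 against 14.04 in both other TCE mice. C1s, the second protease of that complex, differed by -0.11.

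C3, the protein on which all routes converge, was 18.55, 18.46 and 18.37 in control mice and 18.35, 18.43 and 18.41 in TCE mice. These groups overlapped, and the 95% interval of its change of -0.06 ran from -0.32 to 0.20. C4b, which is deposited before C3, differed by -0.15. The lectins Mbl1 and Mbl2, which bind mannose on microbes, differed by -0.08 and 0.03. The chains of C1q, the sensor of antibody complexes, differed by -0.18 for C1qa, 0.16 for C1qb and -0.11 for C1qc, and properdin (Cfp), which steadies the alternative convertase, by -0.18 without overlap. Of 12 listed symbols of Kupffer cell markers, which name the gene Emr1 also as Adgre1, 10 were tested. Among these, 9 were lower in the TCE group and 0 reached an adjusted p of 0.05. Their summed signal was 92.0% to 107% of the control mean in control mice and 81.3% to 96.9% in TCE mice, and its part in the values of C1q and properdin was not tested.

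All 5 terminal complement members were below 0, in each of them the groups did not overlap, and the median change was -0.73. Of the 5, only C8b passed the test. The signal of C8b was 15.23, 15.47 and 15.62 in control mice and 14.18, 14.57 and 14.40 in TCE mice. The lowest control mouse was thus 0.66 above the highest TCE mouse. C8b fell by 1.06, with a 95% interval from -1.44 to -0.67 (limma adjusted p = 0.0345). The call did not hold when any 1 of the 6 mice was left out, where the change lay between -1.16 and -0.95 and the adjusted p between 0.0593 and 0.142. Within the slide that holds the other 5 arrays, without control mouse 1, it was -1.16 (limma adjusted p = 0.0665). The C8b probe lies on chromosome 4 from 104477094 to 104477153 of mm9, the build of the array annotation.

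C9, the subunit that polymerizes into the pore, was 12.45, 12.77 and 13.03 in control mice and 11.49, 11.95 and 11.80 in TCE mice. Its signal was 2.01-fold lower, close to the change of C8b, but the control mice were spread more widely and the limma adjusted p was 0.0673. C8a, the alpha chain of C8 that enters the membrane, was 15.04, 15.13 and 15.08 in control mice and 14.41, 14.50 and 14.15 in TCE mice. The control mice were close together, with an SD of 0.05, and the change of -0.73 had a limma adjusted p of 0.0539. Its other detected probe, on chromosome 4 from 104499275 to 104499334 of mm9, gave -0.51 (limma adjusted p = 0.123), without overlap.

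C6, which binds C5b and so begins the pore, was 12.77, 12.93 and 12.83 in control mice and 12.25, 12.43 and 12.56 in TCE mice. TCE mouse 3 was the nearest to the controls, and the change was -0.43 (limma adjusted p = 0.162). C8g, the gamma chain of C8 and a lipocalin, was 17.01, 17.04 and 17.14 in control mice and 16.57, 16.91 and 16.85 in TCE mice. Its change of -0.29 (limma adjusted p = 0.325) was the smallest of the group, and its other probe gave -0.49, again without overlap. The adjusted p was 0.1 or less in 4 members in all, namely C8b, C8a, C9 and F11. The share of all genes at that level was not computed, so this count has no background beside it. Within the shared slide, without control mouse 1, the changes of C9, C8a and C6 were -1.15, -0.75 and -0.46, and that of F11 was -0.88.

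**Figure D2:**
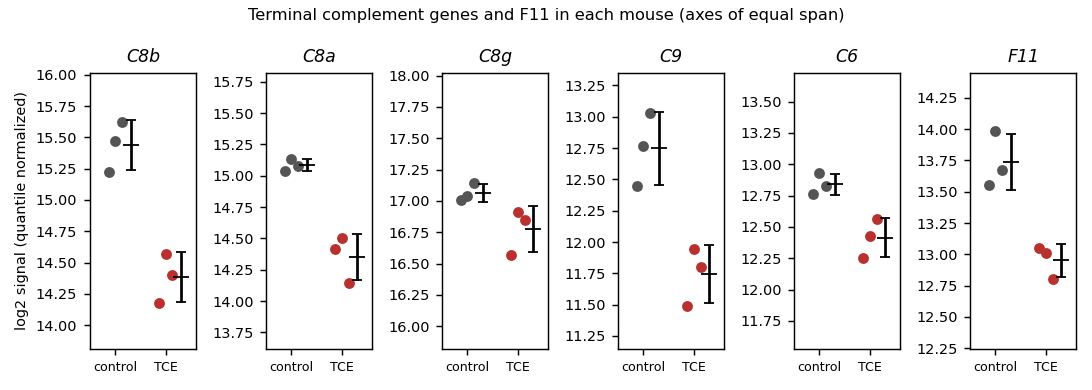
Log2 signal (y axis, quantile normalized, panels of equal span but different levels) of the 5 terminal complement genes and F11 in the 3 control and 3 TCE mice, 1 point per mouse, with the mean and SD (n = 3) beside them. In all 6 panels each TCE mouse lies below each control mouse, with the widest gap between group means for C8b at -1.06 and the narrowest for C8g at -0.29.

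The sequences upstream of the 4 members with an adjusted p of 0.1 or less are shown because these had the lowest adjusted p of the set. Promoters were taken from RefSeq for the assembly GRCm38.p6, which is not the build of the array annotation, and 36 of the 49 members were matched. Each is the 250 bases before the gene's start, from 5′ to 3′ on the strand of the gene, and capitals mark motif letters that were found. C8b lies at chr4:104766067-104766316 on the plus strand and C8a at chr4:104876399-104876648 on the minus strand, with capitals for the hepatocyte nuclear factor 1 (HNF1) half-site GTTAAT on either strand. C9 at chr15:6445096-6445345 on the plus strand and F11 at chr8:45262032-45262281 on the minus strand have in capitals the C/EBP motif TTGCNNAA on either strand.
C8b: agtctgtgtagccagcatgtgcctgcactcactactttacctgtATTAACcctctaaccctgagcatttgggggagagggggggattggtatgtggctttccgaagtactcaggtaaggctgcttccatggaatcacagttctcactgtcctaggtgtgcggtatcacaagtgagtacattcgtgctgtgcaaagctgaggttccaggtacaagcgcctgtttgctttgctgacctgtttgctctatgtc
C8a: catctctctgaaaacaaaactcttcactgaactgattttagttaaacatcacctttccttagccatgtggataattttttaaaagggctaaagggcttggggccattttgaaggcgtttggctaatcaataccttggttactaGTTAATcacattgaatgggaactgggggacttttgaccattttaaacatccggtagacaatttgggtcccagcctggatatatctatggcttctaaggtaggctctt
C9: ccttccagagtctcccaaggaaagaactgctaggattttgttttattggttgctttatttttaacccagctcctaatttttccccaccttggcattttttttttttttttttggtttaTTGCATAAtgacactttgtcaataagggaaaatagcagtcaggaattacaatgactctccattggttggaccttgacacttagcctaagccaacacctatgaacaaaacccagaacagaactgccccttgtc
F11: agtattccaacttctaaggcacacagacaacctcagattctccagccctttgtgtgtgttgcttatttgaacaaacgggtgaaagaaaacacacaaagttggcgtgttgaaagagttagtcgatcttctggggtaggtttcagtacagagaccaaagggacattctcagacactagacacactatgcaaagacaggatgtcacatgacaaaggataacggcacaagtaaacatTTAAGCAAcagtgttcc
The half-site began 206 bases before the start of C8b and 107 bases before that of C8a, and the C/EBP letters began 132 bases before the start of C9 and 17 bases before that of F11. GTTAAT was found in 10 of 36 matched members and in 6.43% of 32851 windows of this length, and TTGCNNAA in 8 of 36 and in 9.56%. The HNF4 letters CAAAGTCCA were in 0 of 36 members and 0.384% of windows, and TATAAA on the sense strand in 1 of 36 and 7.59%. These motifs do not contain one another. By this annotation C8a and C8b are neighbours on opposite strands of chromosome 4. A match in letters is a description of the sequence and was not tested for binding.

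Of 5 complement regulators 4 were below 0, the median change was -0.04, and in all 5 the groups overlapped. Their median was 0.0040 without control mouse 1 and -0.14 with 75th percentile scaling. Cd55, a membrane protein that speeds the decay of convertases, was 9.39, 9.49 and 9.17 in control mice and 8.78, 9.53 and 9.12 in TCE mice. TCE mouse 1 was the lowest of all and TCE mouse 2 the highest, and the change was -0.21 (limma adjusted p = 0.653). Cfi, the protease that cuts C3b and C4b, was 16.66, 16.53 and 16.47 in control mice and 16.49, 16.42 and 16.26 in TCE mice. The highest TCE mouse lay just above the lowest control, and the change was -0.16 (limma adjusted p = 0.531). Cd59a, which blocks the insertion of C9 into the cell's own membrane, was 11.78, 11.74 and 11.64 in control mice and 11.80, 11.91 and 11.77 in TCE mice, a change of 0.10 with overlap (limma adjusted p = 0.661). C4bp, the binding protein of C4b, and Vtn, vitronectin, which binds the forming pore in plasma, differed by -0.03 and -0.04.

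Among the clotting factors, 11 of 15 were below 0 and the median change was -0.26. F11, the factor of the contact pathway that activates factor IX, had the largest difference, on a probe on chromosome 8 from 46326753 to 46326812 of mm9. Its signal was 13.55, 13.98 and 13.68 in control mice and 13.05, 13.01 and 12.80 in TCE mice. The TCE mice lay together, all below the lowest control. The change of F11 was -0.78, with a 95% interval from -1.15 to -0.41 (limma adjusted p = 0.0673).

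F7, the protease that pairs with tissue factor, was 12.36, 12.33 and 12.36 in control mice and 12.14, 11.77 and 11.90 in TCE mice. The control mice were nearly level, all TCE mice were lower, and the change was -0.41 (limma adjusted p = 0.182). A second F7 probe gave -0.43, but the 2 probes overlap on the genome and are not separate evidence. F5, the cofactor of factor X, was 13.76, 13.56 and 13.63 in control mice and 13.49, 13.09 and 13.02 in TCE mice, a change of -0.45 without overlap (limma adjusted p = 0.218). In its other probe, TCE mouse 1 at 12.17 lay among the controls at 12.24, 12.12 and 12.14, while TCE mouse 2 was at 10.35.

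The other factors of the contact pathway had differences of -0.32 for Klkb1, plasma prekallikrein, and -0.27 for F12, which starts it, and of -0.06 for Kng1, its kininogen cofactor. In Klkb1 and F12 the groups overlapped. F2, prothrombin, was 17.05, 17.11 and 16.72 in control mice and 16.95, 16.00 and 16.98 in TCE mice. TCE mouse 2 alone was low, and the change of -0.32 had a limma adjusted p of 0.607. F10, which joins both branches of the cascade, differed by -0.05, F9, the factor lacking in haemophilia B, by 0.06, and F13b, the carrier chain of the fibrin cross-linker, by -0.27.

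The fibrinogen genes, whose chains form the clot, were the clotting factors with the highest changes and lay next to one another at 0.14 for Fga, 0.13 for Fgb and 0.16 for Fgg. Fgg was 18.13, 18.05 and 18.08 in control mice and 18.28, 18.25 and 18.21 in TCE mice. It was the single tested member in which all TCE mice were above all controls, by a small step that had a limma adjusted p of 0.476. In Fga and Fgb the groups overlapped. The 95% interval of each of the 3 changes spanned 0, and the highest upper bound was 0.52, for Fga.

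Of the factors made by endothelial cells, F8 was 7.45, 7.84 and 7.34 in control mice and 6.44, 7.66 and 7.80 in TCE mice. TCE mouse 1 was the lowest of all and the other TCE mice lay among the controls, and the change was -0.24 (limma adjusted p = 0.780). Vwf, which carries factor VIII and binds platelets, differed by -0.26 with overlap (limma adjusted p = 0.355). The summed signal of the 9 tested of 10 sinusoidal endothelial markers was 54.6% of the control mean in TCE mouse 1, 106% and 97.8% in TCE mice 2 and 3, and 98.8% to 102% in control mice. All 9 were below 0 in the TCE group and 0 reached an adjusted p of 0.05, and their part in the values of F8, Vwf and Thbd was not tested. Of 6 megakaryocyte and platelet markers only Pf4 was tested, at -0.01.

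Anticoagulants ranged from -0.74 to 0.20 with a median of -0.10, and 3 of 5 were below 0. Thbd, thrombomodulin, which turns thrombin toward the activation of protein C, was 8.50, 8.51 and 7.34 in control mice and 7.07, 7.66 and 7.41 in TCE mice. Control mouse 3 lay among the TCE mice, so that the groups overlapped, and the change of -0.74 had a limma adjusted p of 0.337. Without control mouse 3 it was -1.12, still short of the threshold (limma adjusted p = 0.105). Proc, protein C itself, was 16.46, 16.34 and 16.43 in control mice and 16.27, 16.24 and 16.00 in TCE mice, a change of -0.24 without overlap (limma adjusted p = 0.370).

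Tfpi, the inhibitor of tissue factor and factor VIIa, was 7.56, 7.49 and 7.50 in control mice and 7.41, 8.04 and 7.71 in TCE mice. The TCE mice lay on both sides of the controls, and the change was 0.20 (limma adjusted p = 0.598). It was the only member whose detected probes gave both directions, with 0.20, -0.14 and 0.02. Proz, which directs an inhibitor to factor Xa, differed by -0.10, and Pros1, protein S, the cofactor of protein C, by 0.01.

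In fibrinolysis only Plg and Cpb2 were tested. Plg, plasminogen, was 16.41, 16.49 and 16.52 in control mice and 16.36, 16.38 and 16.36 in TCE mice. All TCE mice were below all control mice, by a change of only -0.11 (limma adjusted p = 0.634). Cpb2, a carboxypeptidase that slows the lysis of fibrin, was 15.97, 16.03 and 15.98 in control mice and 15.99, 15.77 and 15.88 in TCE mice. TCE mouse 1 lay among the controls, and the change was -0.11 (limma adjusted p = 0.647). The plasminogen activators did not pass the filter and were not tested: Plau was at background level in all mice, and Plat was clearly above it in control mouse 3 alone, at 6.35.

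The functional groups were set side by side by averaging, in each mouse, the deviations of the members from their control means. For terminal complement this mean was -0.14, 0.03 and 0.11 in control mice and -0.86, -0.56 and -0.68 in TCE mice. For early complement it lay between -0.04 and 0.04 in control mice and was -0.13, -0.16 and -0.18 in TCE mice, and for clotting factors it was 0.06, 0.04 and -0.09 against -0.15, -0.25 and -0.19. The groups of mice did not overlap in these 3 sets or in fibrinolysis, but the step was largest in terminal complement. In regulators and anticoagulants the mice overlapped. The difference between functional groups was not tested, since their members are different genes in the same 6 mice.

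**Figure D3:**
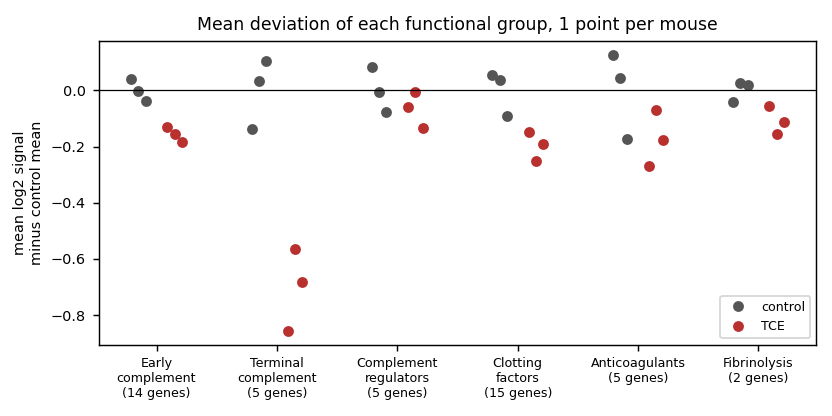
Mean log2 deviation from the control mean (y axis) of the tested members of each functional group (x axis, with the number of genes), 1 point per mouse, grey for control and red for TCE. In terminal complement the TCE mice are at -0.86, -0.56 and -0.68 and the control mice between -0.14 and 0.11, while in complement regulators and anticoagulants the mice overlap.

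Members did not single out the same mouse. TCE mouse 1 was the lowest of the 3 TCE mice for C8b, C9, C6 and C8g and also for Cd55, F8 and Thbd. TCE mouse 2 was the lowest for F2, F7 and F12, and TCE mouse 3 for C8a, F11, C2, F5 and C1ra. Averaged over all 46 members, the TCE mice were at -0.22, -0.21 and -0.23 and the control mice at 0.04, 0.02 and -0.06.

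**Figure D4:**
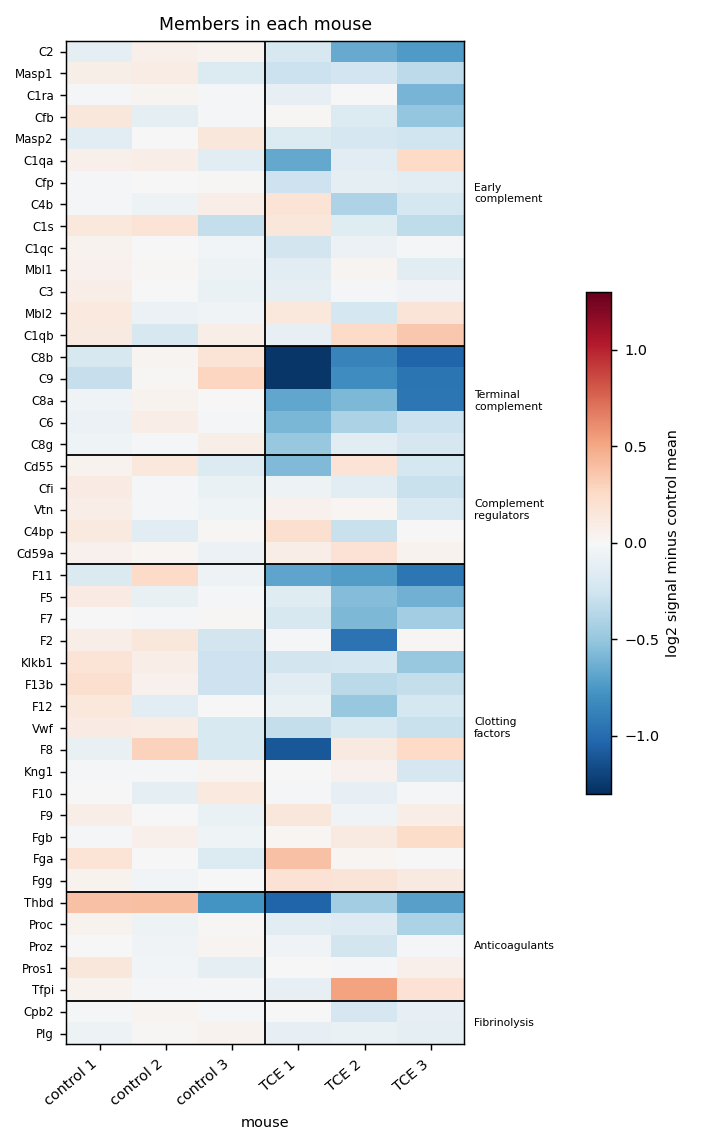
Log2 signal minus the control mean (colour, blue for lower and red for higher) of the 46 tested members (rows, by functional group) in the 6 mice (columns, control left and TCE right of the line). C8b, C9, C8a and F11 are blue in all TCE mice, whereas F2 in TCE mouse 2, at 16.00, and F8 in TCE mouse 1, at 6.44, are dark blue in a single mouse.

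Several probes were detected for 13 members, and in all of these but Tfpi the probes had the same sign. The size of a change was less alike. The probes of Kng1 gave -0.06 and -0.31, and those of Proz -0.10 and -0.36, where in each case the probe that did not represent the gene showed the larger difference and no overlap of the groups. The same held for C8g, C1ra, F7 and both other probes of Masp1. In C3, Masp2, F5, F10 and Fga, too, the other probes had the larger change. Among members whose probes had the same sign, C8a was the only one whose representing probe had the larger change. The probes of a gene can read different transcripts, which was not tested.

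**Figure D5:**
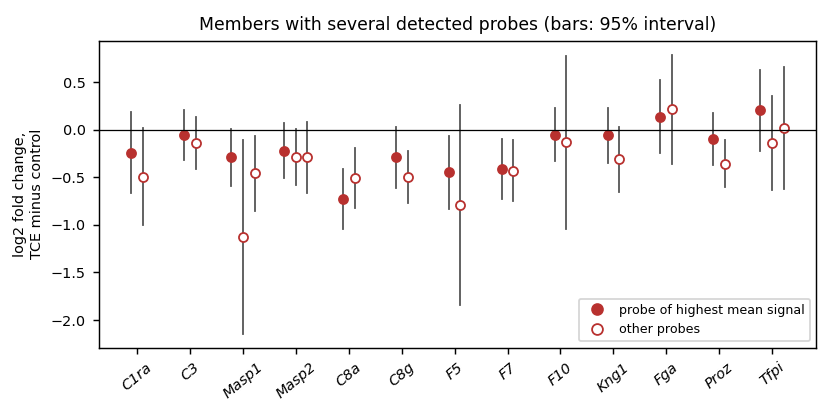
Log2 fold change (y axis, TCE minus control) of each detected probe of the 13 members that have several (x axis), with 95% intervals from limma. Filled points are the probe of highest mean signal and open points the others, and only for Tfpi, at 0.20, -0.14 and 0.02, do they lie on both sides of 0.

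Other genes of the same pathways, from lists that are not members, were read for comparison. Of 20 further complement genes, 15 were tested, 12 were below 0, and 0 were past the threshold. Susd4, an inhibitor of complement convertases, fell by 0.72 and had a limma adjusted p of 0.0415, though its change was under 2-fold. C5, under the symbol Hc, which is cut to begin the pore, differed by -0.17 with overlap (limma adjusted p = 0.505), and C7 exceeded the background clearly in 1 control mouse and in no TCE mouse. Of 15 further coagulation genes, 11 were tested, 10 were below 0 and 0 reached an adjusted p of 0.05. Hc and C7 are named for their role after their values were seen.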

How the data were processed

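Liver RNA of 3 control and 3 TCE mice was measured on 1-colour arrays (Cy3), 1 array per mouse. The authors deposited the scanner output of Feature Extraction 10.7.1.1, whose processed intensity is background-subtracted, as well as group means of quantile-normalized log2 values, with gene symbols and probe positions on mm9. Here, the processed intensity of spots that are neither controls nor outliers was put on the log2 scale, averaged per probe and quantile normalized. The group means lay within 0.01 of the log2 means that the authors deposited for all 66 member probes. Columns that fit no sample numbered 0.

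Tests covered the 22731 probes detected in each of the 3 mice of either group, by limma 3.58.1 (R 4.3.3, statmod 1.5.0), two-sided, with Benjamini-Hochberg adjustment over all of them. Counts of genes use 1 probe each. Depth is not defined for arrays, and their number limits the precision. Same-numbered control and TCE mice did not deviate together (r from -0.09 to 0.09), so that numbers were not used as pairs. The procedure was tested on simulated data.

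Per-mouse values are given for members with an adjusted p of 0.05 or less, those with an unadjusted p of 0.05 or less and no overlap, and the 3 largest changes of each functional group, and for some others chosen after their values were seen. The members and lists were chosen with earlier results of these data known. The values of 1 listed gene that is no member are not reported here. The alternatives were 75th percentile scaling, normexp background correction (offset 50), the deposited means, other filters, inclusion of outlier spots, slide or replicate number as a block, weights per array, an intensity trend, each mouse left out, the methods' t-test, other thresholds and the mean over probes. The count of members below 0 under each of them was added after the data were seen.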

Additional observations from a re-analysis of the deposited data

Results flagged for a closer look

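Cfd, complement factor D (adipsin), the protease that starts the alternative pathway and is made mainly by fat cells, did not pass the filter on dim probes. It appears here because its probe was well above background in TCE mouse 3, at a log2 signal of 7.77, and on no other array. The signal was 3.48, 3.17 and 2.99 in control mice and 4.20 and 3.60 in TCE mice 1 and 2. Of the 5 adipocyte markers, Adipoq, Lep and Plin1 were not well above background on any array and Retn not in TCE mouse 3, while Car3, which hepatocytes also express, was so on all arrays and lowest in TCE mouse 3, at 61.5% of the control mean. The difference rests on 1 mouse, and neither the difference nor the source of the signal was tested.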

How the results depend on the processing

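C8b, the single member past the threshold, changed by -1.16 to -0.95 over all alternatives, with adjusted p from 0.0134 to 0.142 by limma or the methods' t-test. The count of members past it was 0 with 75th percentile scaling, where the adjusted p of C8b was 0.0520, with no filter on dim probes (0.118), with slide as a fixed block (0.0665), with each mouse left out (0 to 0 members) and with the methods' t-test after Benjamini-Hochberg adjustment (0.106). It was 2, C8b and C9, with array weights, with an intensity trend, or by the methods' t-test when its P was left unadjusted, and 4 at an adjusted p of 0.1 and any fold change. At an adjusted p of 0.05 and any fold change, array weights, the intensity trend and normexp each gave 4, namely C8a, C8b, C9 and F11. The share of all genes called was not computed under these alternatives, so whether their counts exceed the background is not known. With the replicate block, numbers that are not known to pair the mice, the count was 0 and the adjusted p of C8b 0.102. Slide as a fixed block gives the same fit as leaving out control mouse 1, the only array on its slide. These are not separate checks.

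The median change of the regulators was -0.14 with 75th percentile scaling, a scaling that moved the median of all probes by 0.02, and that of the clotting factors -0.15 with normexp. With 1 mouse left out, the clotting factors lay between -0.34 (without control mouse 3) and -0.16, early complement between -0.19 and -0.10 (without TCE mouse 3), terminal complement between -0.81 and -0.63, anticoagulants between -0.14 (without TCE mouse 3) and -0.03 (without TCE mouse 2), and regulators between -0.10 (without control mouse 2) and 0.0040, where the sign turned without control mouse 1. Members below 0 numbered 35 to 40 of 46, or 39 of 49 without a filter, and all 5 of terminal complement were below 0 under every alternative run. The cause of these shifts was not tested.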
